A study of Danio rerio with 6 samples.

Results

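The genes described here are 7 of the 326 genes measured on a real-time PCR panel of zebrafish (Danio rerio) immune and signalling genes. They are the complement components C3-1, C4-1 and C4-2, the hepcidin assays hamp1 and hamp2, and the peptidoglycan recognition proteins PGRP2 and PGRP6, taken by the symbol of their well. They were chosen by name, with earlier results of these data known. Whole embryos were sampled at 24 hours post fertilization (hpf) and belonged to one of 2 groups of 3 replicates each. The control group had been microinjected with the plasmid ptGFP1, and the NOD1 group had been microinjected with ptGFP1-NOD1, which carries NOD1, an intracellular receptor for fragments of bacterial cell wall. RNA came from pools of 150 to 200 embryos on average, so each value is a mean over many embryos and over all their tissues, and fewer expressing cells cannot be told apart from less transcript per cell. The strain of the fish, the promoter of the plasmid and the cells that carried it are not stated in the labels.

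Complement is a cascade of plasma proteins that marks microbes for destruction. C4 is cleaved in the classical and lectin branches and helps to form the enzyme that cleaves C3, the component on which all branches converge. Hepcidin is a small peptide made mainly in the liver that lowers iron export from cells by binding ferroportin. In mammals its gene responds to interleukin 6 through STAT3 and to bone morphogenetic proteins through SMAD factors. Peptidoglycan recognition proteins bind bacterial cell wall outside the cell or at its surface, and several vertebrate members are enzymes (amidases) that cut it, whereas NOD1 senses its fragments in the cytosol.

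PGRP6 and hamp1 were higher in NOD1 embryos. PGRP6 was 6.09-fold and hamp1 4.02-fold higher relative to the reference genes, and both passed the test under every scaling tried. PGRP2 was 2.42-fold higher, and C3-1, C4-1 and C4-2 were 1.74-fold, 1.75-fold and 1.59-fold higher relative to the reference genes, but these 4 rises were lost under several other scalings. The second hepcidin assay, hamp2, differed by 0.477-fold and did not pass. In all, 6 of the 7 genes passed in the direction of a rise and 0 in that of a fall, where 37% of the 319 genes tested passed as higher and 15.4% as lower. The median difference was 0.80 on the log2 scale over the 7 genes and 0.32 over the 319.

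These values rest on the threshold cycle (Ct), the PCR cycle at which fluorescence crosses a fixed line, so that an earlier Ct means more template. The relative level is the mean Ct of the reference genes ACTB, GAPDH and Tuba1 on a plate minus the Ct of the gene. It is a log2-like scale on which 1 unit is about a doubling, if the product doubles in each cycle. Levels of different assays are not comparable as amounts, because the labels and files do not state how efficiently each assay amplifies. A gene entered the test when all plates of 1 or both groups had a Ct under 35, and all 7 did so, with all of their 42 wells between 23.8 and 30.5 cycles. The test was limma's moderated test over all 6 plates, with a threshold of 0.05 on the Benjamini-Hochberg adjusted p over the 319 genes. Each replicate was 1 plate, and the labels do not say whether replicates came from separate spawnings, so the p-values measure only the spread between these pools. On each plate 314 to 321 gene wells were under 35 cycles. The nod1 assay, which checks the labels, read 386-fold higher in the NOD1 plates (limma adjusted p = 2.25e-04). Whether it also read the injected plasmid was not tested. Per the file headers the control plates were run on 2 days and the NOD1 plates on another day, so the run day and the injected plasmid cannot be told apart for any value below.

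PGRP6, matched by its accession to the zebrafish gene pglyrp6, had the largest difference between the groups among the 7 genes. Its Ct was 26.2, 25.8 and 25.7 in control and 23.8, 24.1 and 24.0 in NOD1 embryos. All NOD1 plates were thus earlier than all control plates before any scaling, by 1.95 cycles on average. The relative level rose from -8.30 ± 0.29 (SD, n = 3) to -5.69 ± 0.10, a rise of 2.61 ± 0.18 (SE) on the log2 scale (limma adjusted p = 5.81e-04). The 95% interval of the fold ran from 4.48 to 8.29. PGRP6 ranked 18 among the 118 higher genes by size and 4 of 319 by p. It was the earliest of the 7 genes on each of the 6 plates. The rise passed under all 10 other scalings, at 3.87-fold on raw Ct to 8.54-fold with 18S rRNA added, and without any single plate, at 5.45-fold to 6.65-fold.

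PGRP2, matched by its accession to pglyrp2, varied more between control plates. Its Ct was 29.0, 30.5 and 29.9 in control and 28.6, 29.5 and 29.3 in NOD1. On raw Ct the groups overlapped, because control replicate 1 was earlier than NOD1 replicates 2 and 3. Control plates had relative levels of -11.40, -12.73 and -12.40 for PGRP2 and NOD1 plates -10.43, -11.14 and -11.12, so that the groups no longer overlapped. This rise of 1.28 ± 0.40 (SE) on the log2 scale passed with an adjusted p of 0.0408 (limma, n = 3 per group), with a 95% interval of the fold from 1.22 to 4.80. It passed under 3 of the 10 other scalings (B2M added, 18S rRNA added and GAPDH alone) and was -0.064 with quantile scaling (adjusted p = 0.917). It was lost when any plate other than control replicate 1 was left out (adjusted p = 0.0626 to 0.111).

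The gap between PGRP2 and PGRP6 within a plate does not depend on the reference genes. Another peptidoglycan recognition protein on the panel, PGRP5, is given with the lists below. PGRP2 crossed the threshold 2.77, 4.68 and 4.18 cycles after PGRP6 in control and 4.84, 5.45 and 5.33 cycles after it in NOD1 plates. The gap was wider in every NOD1 plate than in any control plate, by 1.33 ± 0.60 cycles (SE). The exact permutation test, two-sided, gave p = 0.1, the smallest that 3 against 3 plates allow, and 0.15 after adjustment over the 3 pairs of related assays compared. Without control replicate 1 the gap differed by 0.78 cycles, and without control replicate 2 by 1.73.

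**Figure D1:**
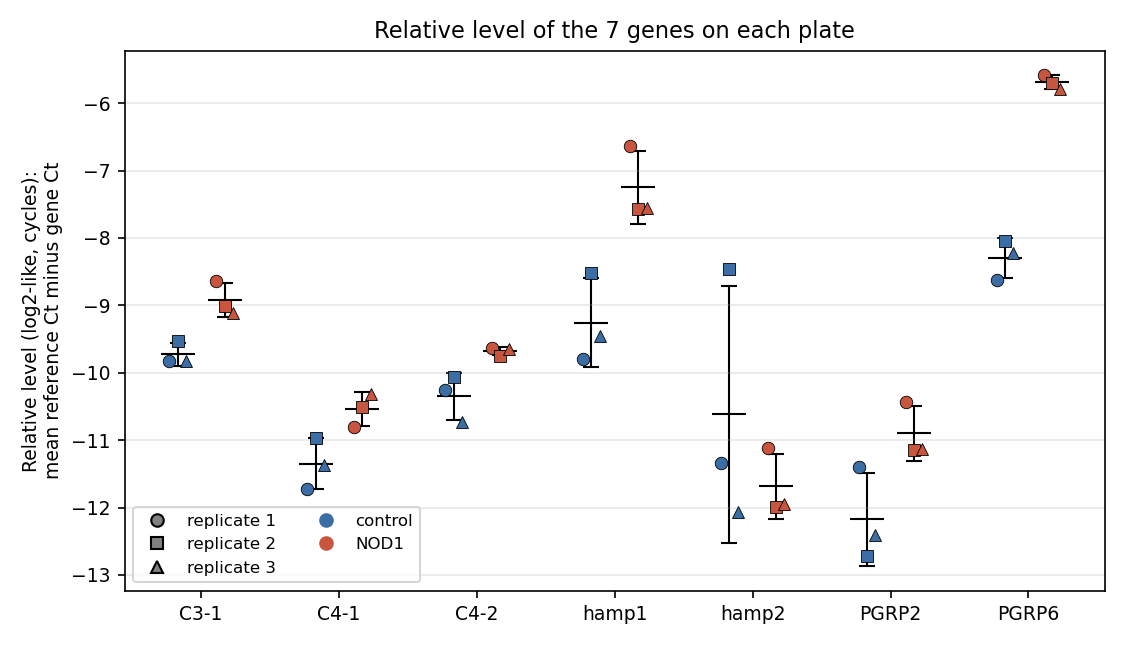
Relative level of the 7 genes (y axis, mean reference Ct minus gene Ct, in cycles, a log2-like scale) by gene (x axis), with 1 symbol per plate, blue for control and red for NOD1, and mean ± SD (n = 3) as bars. All NOD1 plates lie above all control plates for 6 of the 7 genes (42.3% over all genes), PGRP6 with the least spread beside its rise, while hamp2 overlaps and has 1 control plate, replicate 2, far above the other control plates.

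Of the hepcidin assays, hamp1 rose and hamp2 did not pass the test. The hamp1 assay crossed the threshold at 27.4, 26.3 and 26.9 cycles in control and at 24.8, 26.0 and 25.8 in NOD1 plates. NOD1 replicate 1 was the earliest well, and no NOD1 plate was as late as any control plate. The relative level of hamp1 rose from -9.26 ± 0.66 (SD, n = 3) to -7.25 ± 0.54, by 2.01 ± 0.42 (SE) on the log2 scale (limma adjusted p = 0.0104), with a 95% interval of the fold from 1.96 to 8.24. It ranked 43 among the 118 higher genes by size. The rise passed under all 10 other scalings, at 2.55-fold on raw Ct to 5.63-fold with 18S rRNA added, and without any single plate, at 3.24-fold to 5.18-fold.

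The hamp2 assay was at 28.9, 26.2 and 29.5 cycles in control and at 29.3, 30.4 and 30.1 in NOD1 plates. Control replicate 2 was over 2 cycles earlier than every other well of hamp2, and the other control wells lay on either side of NOD1 replicate 1. Relative to the reference genes hamp2 differed by -1.07 ± 0.95 (SE) on the log2 scale (limma adjusted p = 0.373), with a 95% interval from -3.42 to 1.29 that covers a fall and a rise. Without control replicate 2 the difference was 0.014 (adjusted p = 0.975), against -1.79 without control replicate 3 (adjusted p = 0.164). It did not pass under any of the 10 other scalings (-2.26 to -0.58).

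Both hepcidin symbols are listed for the same current zebrafish gene, hamp, in the RefSeq gene table of assembly GRCz12tu, hamp1 by accession and hamp2 as a synonym. The plate table gives them different source accessions, and the primers are not stated there, so whether the wells read 1 transcript, different transcripts or different gene copies cannot be told apart. Within a plate, the Ct of hamp1 minus that of hamp2 was -1.54, 0.071 and -2.62 cycles in control and -4.49, -4.42 and -4.39 in NOD1 plates. In control replicate 2 the assays crossed together, whereas in the NOD1 plates hamp1 led by a nearly fixed margin. The difference between the groups was -3.07 ± 0.78 cycles (SE), with no overlap of plates (two-sided exact permutation p = 0.1, the lowest possible, and 0.15 over the 3 pairs). Without control replicate 2 it was -2.36 and without control replicate 3 -3.70. The SD over plates was 1.35 in control and 0.051 in NOD1. Control replicates 2 and 3 had been run on the same day and spanned the whole control range of 2.69 cycles.

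**Figure D2:**
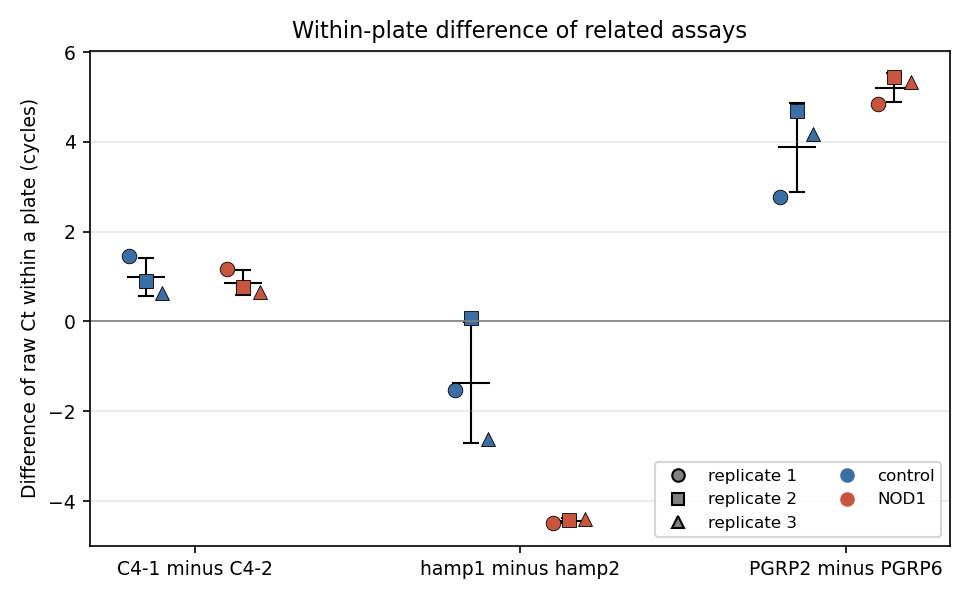
Difference of raw Ct between related assays on the same plate (y axis, cycles) for 3 pairs (x axis), with 1 symbol per plate, blue for control and red for NOD1, and mean ± SD (n = 3) as bars. The NOD1 plates of hamp1 minus hamp2 sit together near -4.4 cycles while the control plates spread from -2.62 to 0.071, and C4-1 minus C4-2 overlaps between the groups.

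The 3 complement genes differed little between the groups in their own wells. C3-1 was at 27.4, 27.3 and 27.3 cycles in control and at 26.9, 27.4 and 27.3 in NOD1. C4-1 was at 29.3, 28.7 and 28.8 cycles in control and at 29.0, 28.9 and 28.5 in NOD1. C4-2 was at 27.9, 27.8 and 28.2 cycles in control and at 27.9, 28.1 and 27.9 in NOD1. On raw Ct the groups overlapped for all 3 genes, whose means were earlier in NOD1 by 0.148, 0.149 and 0.0185 cycles.

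Relative to the reference genes the same wells no longer overlapped between the groups. C3-1 had relative levels of -9.83, -9.52 and -9.83 in control and -8.64, -9.02 and -9.12 in NOD1, a rise of 0.80 ± 0.18 (SE, limma adjusted p = 0.0123). C4-1 went from -11.35 ± 0.38 (SD, n = 3) to -10.54 ± 0.25, a rise of 0.80 ± 0.24 (SE, limma adjusted p = 0.0356). C4-2 went from -10.35 ± 0.35 to -9.68 ± 0.058, a rise of 0.67 ± 0.20 (SE, limma adjusted p = 0.0323). In this comparison 42.3% of the 319 genes had all NOD1 plates above all control plates, against 24.5% with all NOD1 plates earlier on raw Ct. C3-1 and C4-1 ranked 101 and 100 and C4-2 ranked 111 among the 118 higher genes, near the lower end. C3-1 kept its call without any single plate. C4-1 lost it without control replicates 1 or 3 or NOD1 replicates 2 or 3 (adjusted p = 0.0889 to 0.0945), and C4-2 without any plate other than control replicate 2 (0.0581 to 0.0805).

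C3-1 and C4-1 belong to families with close copies. The symbol C3-1 is a synonym of 2 genes in the RefSeq table, c3a.1 and c3a.2, and its assay may read either. C4-2 is a synonym of c4b, and C4-1 was not matched there by accession, symbol or synonym. C4-1 crossed the threshold after C4-2 on every plate, by 1.46, 0.903 and 0.629 cycles in control and 1.17, 0.770 and 0.659 in NOD1. That gap changed by -0.13 ± 0.29 cycles (SE) between the groups (exact permutation p = 0.7, two-sided, also 0.7 over the 3 pairs), a change smaller than the spread between plates and of the opposite sign without control replicate 1 (0.10).

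**Figure D3:**
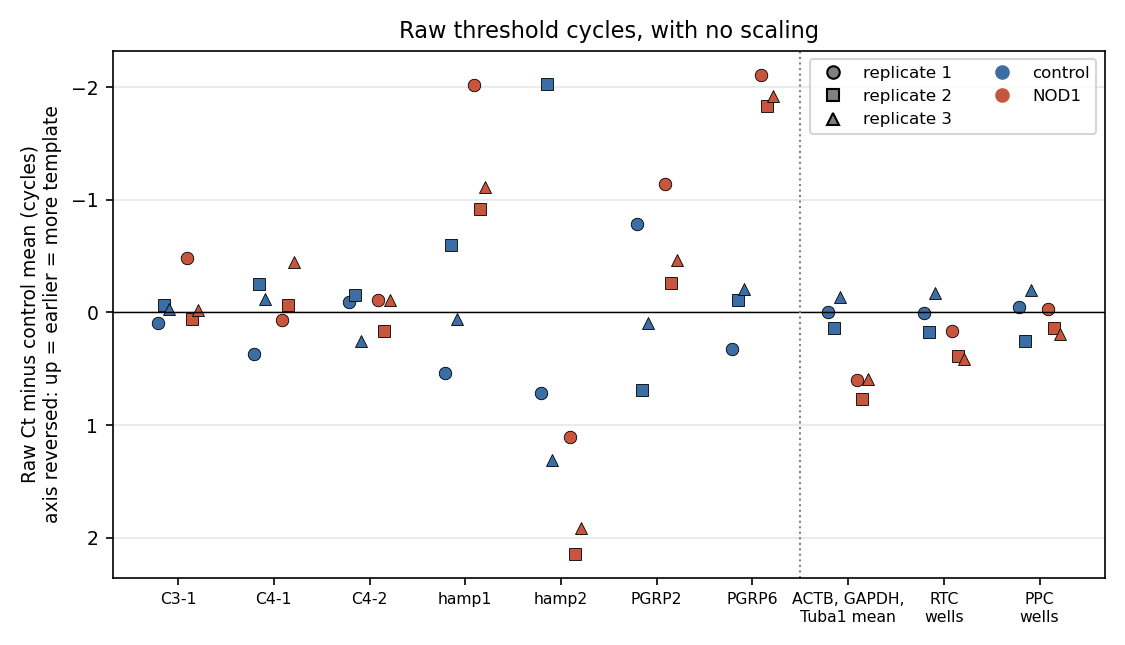
Raw Ct minus the mean of the control plates (y axis in cycles, reversed so that earlier is up) for the 7 genes, the mean of the 3 reference genes and the wells labelled RTC and PPC (x axis), 1 symbol per plate, blue for control and red for NOD1. The NOD1 plates of PGRP6 and hamp1 lie above all control plates, the complement genes overlap, and the NOD1 plates of the reference genes lie 0.655 cycles lower on average.

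The size of the smaller rises followed the choice of scaling. Averaged over ACTB, GAPDH and Tuba1, the Ct was 17.6, 17.8 and 17.5 in control and 18.2, 18.4 and 18.2 in NOD1, later by 0.655 (two-sided exact permutation p = 0.1, the lowest possible). B2M was later in NOD1 by 1.12 cycles and 18S rRNA by 2.60 cycles (two-sided exact permutation p = 0.1 for each), and relative to the 3 reference genes 18S rRNA was 0.259-fold (limma adjusted p = 6.82e-04). The cause of these shifts was not tested. Relative to ACTB, GAPDH and Tuba1 every other gene gains the 0.655 cycles of their mean. The rise of 0.67 for C4-2 is thus made of 0.0185 cycles in its own wells and 0.655 in the reference wells. The array also carries control wells labelled RTC and PPC, the usual names of reverse transcription and PCR controls on this type of plate. Their mean Ct was later in NOD1 by 0.322 and 0.0993 cycles (exact permutation p = 0.2 and 0.6, two-sided). Scaled to either set of wells, chosen as references after the data were seen, PGRP6 (4.84-fold and 4.15-fold) and hamp1 (3.19-fold and 2.73-fold) passed and the other 5 genes did not, where 26.6% and 21.3% of all genes passed as higher. PGRP6 and hamp1 were also the 2 that passed as higher with the global mean, the global median and cyclic loess, where 23.8%, 24.8% and 20.7% of all genes did, and with quantile scaling, where 18.8% were higher and 24.5% lower. With quantile scaling C4-1 passed in the opposite direction (-0.51 on the log2 scale, adjusted p = 0.0448), while C4-2 was -0.26 and C3-1 0.065 without passing. On raw Ct PGRP6 and hamp1 again passed as higher and none of the 7 as lower, where 22.3% of all genes were higher and 42% lower.

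**Figure D4:**
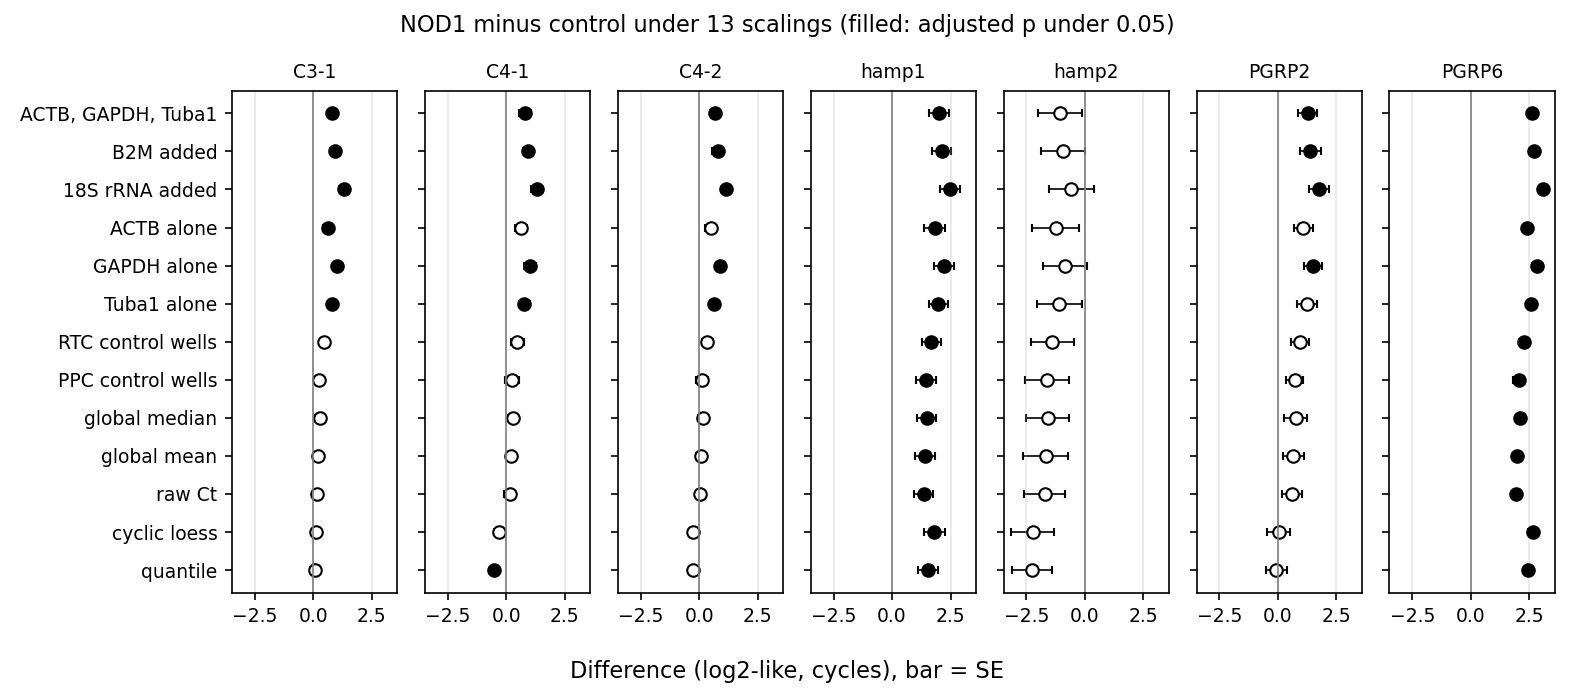
Difference of NOD1 minus control (x axis, log2-like scale, in cycles, bars are SE) for each of the 7 genes under 13 scalings (y axis), filled where the adjusted p was under 0.05. PGRP6 and hamp1 are filled in every line, hamp2 in none, and the complement genes and PGRP2 move toward or past 0 at the bottom.

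Over the panel, the share of genes called higher differed with Ct, and the 7 genes can be read against genes of like Ct. The median difference was -0.060 on the log2 scale for the 75 genes with a mean Ct from 24 to below 26, the range that holds PGRP6 with its rise of 2.61. It was 0.67 for the 71 genes from 26 to below 28, where C3-1 (0.80) lay just above that median and hamp1 (2.01) well above it. The ranges include the 7 genes, and C4-2 (0.67) was itself the median gene of this range. The median was 1.25 for the 63 genes from 28 to below 30. They include PGRP2 (1.28) close to that median, C4-1 (0.80) below it and hamp2 (-1.07) far below. The share of genes called higher was 21.3%, 43.7% and 66.7% in these ranges, 11.6% for the 69 genes with a mean Ct below 24 and 51.2% for the 41 genes from 30 cycles. The wells of the complement genes and of PGRP2 and PGRP6 lie in row M of the plate, whose 24 genes had a median difference of 1.09, and the hepcidin wells lie in row N, with 0.15 over 14 genes. Rows hold different kinds of genes, so row and gene content cannot be told apart.

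**Figure D5:**
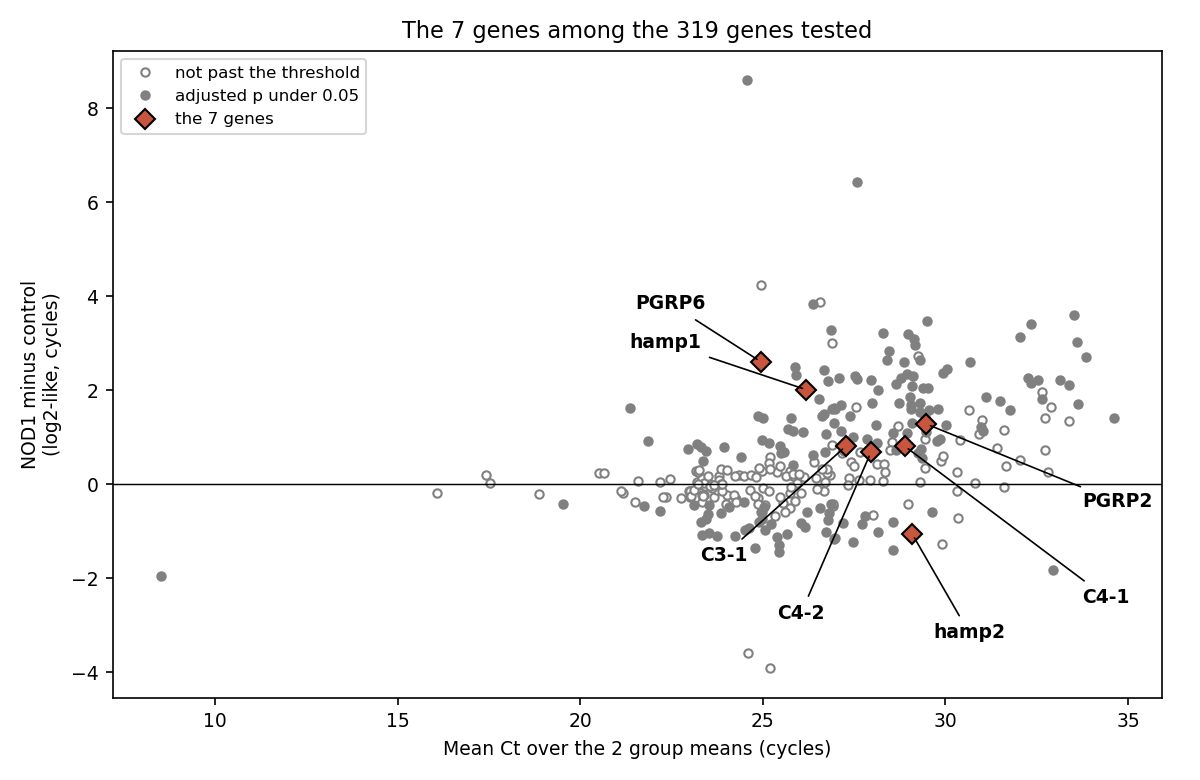
Difference of NOD1 minus control (y axis, log2-like scale, in cycles) against the mean Ct of the 2 groups (x axis) for 319 genes, filled where the adjusted p was under 0.05, with the 7 genes as red diamonds. PGRP6 and hamp1 lie above most genes of like Ct, the complement genes and PGRP2 lie among them, and hamp2 lies below.

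Genes of the same pathways, the 7 included, were read from lists of symbols. The complement list had 4 genes on the plate, of which 3 rose, 0 fell and 1 missed the threshold. Over the 319 genes 37% rose and 15.4% fell. The 3 that rose are C3-1, C4-1 and C4-2 again, so the list adds only 1 gene to the 7. The gene that missed, named after its values were seen, was C3-2, which differed by 0.42 ± 0.34 (SE, limma adjusted p = 0.329). Its groups overlapped, and its symbol, like C3-1, is listed as a synonym of c3a.2. With the global mean, the global median, cyclic loess or raw Ct 0 of the 4 rose and 0 fell, and with quantile scaling 0 rose and 1 fell. Of the 319 genes 60 to 79 rose and 72 to 140 fell under these scalings. No complement receptor or regulator of the list had a well. Of 7 genes of the list for peptidoglycan recognition and relay, 6 were higher and 1 was lower. The shares over all genes were again 37% and 15.4%. That list holds PGRP2, PGRP6 and nod1, the injected gene. Outside the genes described here it has 5, nod1 included, of which 4 were higher and 1 lower. TLR2, a receptor for bacterial lipoproteins, rose by 1.59 ± 0.34 (SE, limma adjusted p = 0.0111). PGRP5, another peptidoglycan recognition protein, was named after its values were seen. It rose by 1.09 ± 0.24 (SE, limma adjusted p = 0.0123). The fall in that list, named after its values were seen, was that of RIPK2, the kinase that relays NOD1 signals, by 0.92. With quantile and with cyclic loess scaling 2 genes of this list were higher and 1 lower, where 60 and 66 of the 319 were higher and 78 and 72 lower. With the global mean, the global median or raw Ct 4 of this list were higher and 1 lower. Of the 319 genes 76, 79 and 71 were higher and 140, 114 and 134 lower under these scalings.

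The list for hepcidin regulation was split, with 4 of 12 genes rising, 3 falling and 5 missing the threshold, and a median difference of 0.062. These counts are near the shares of 37% higher and 15.4% lower over all genes. Besides hamp1, the cytokine IL22, which acts on epithelia and liver cells in mammals, rose by 2.30 ± 0.24 (SE, limma adjusted p = 0.00135). JAK1, a kinase bound to cytokine receptors, had the largest difference of the list, 4.24 ± 3.45, without passing (limma adjusted p = 0.332). Its well in control replicate 1 was over 35 cycles or undetermined and was set to 35, a relative level of -17.39. On the other plates the level of JAK1 lay between -5.01 and -4.75, so its difference rests on that well. The other genes of this list, the SMAD genes included, were picked for naming with their values known. IL1B rose by 1.62 ± 0.24 (SE, limma adjusted p = 0.00348). The interleukin 6 receptor IL6R rose by 0.62 relative to the reference genes, while IL6ST, the chain that passes the signal on, fell by 1.35. The panel also has a gene with the symbol IL-6RA, which the list did not match and which was named after its values were seen. It rose by 0.88 ± 0.21 (SE, limma adjusted p = 0.0158). The mean raw Ct was 26.34 in control and 26.38 in NOD1 for IL6R, and 23.77 and 25.78 for IL6ST. STAT3 fell by 0.98 and JAK2 by 0.37. SMAD1, SMAD5 and SMAD4, which act downstream of bone morphogenetic proteins, differed by 0.011, 0.11 and -0.24 and did not pass. With the global mean, the global median or raw Ct 3 of the list were higher and 6 lower. Of all 319 genes 76, 79 and 71 were higher and 140, 114 and 134 lower under these scalings. With quantile scaling 3 of the list were higher and 3 lower, and with cyclic loess 3 were higher and 2 lower. There 60 and 66 of the 319 genes were higher and 78 and 72 lower.

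Of the 5 genes in the acute phase and antimicrobial list 2 were higher, hamp1 and C3-1, and 0 were lower, a count near the 37% of all genes that were higher. With the global mean, the global median, quantile, cyclic loess or raw Ct 1 of the 5 was higher and 0 lower. Over the panel of 319 genes 60 to 79 were higher and 72 to 140 lower under these scalings. NOS2A, the inducible nitric oxide synthase, differed by 1.15 ± 0.60 and did not pass (limma adjusted p = 0.157). No hepatocyte, neutrophil or erythroid marker of the lists had a well on the panel, so the share of liver cells, a main source of complement and hepcidin, was not measured. Of the macrophage markers 1 of 4 had a well, CSF1R, the receptor for macrophage growth factor, and it fell by 1.17 ± 0.16 (adjusted p = 0.00271). Of the 5 general myeloid markers 2 had wells, and both rose, the transcription factors SPI1 by 0.81 ± 0.19 and CEBPB by 1.48 ± 0.18 (limma adjusted p = 0.0146 and 0.00178). With the global mean, the global median, quantile or raw Ct 1 of these 2 was higher, and with cyclic loess 2. The mean Ct of SPI1 was 25.54 in control and 25.38 in NOD1. Relative to the reference genes CSF1R and the myeloid markers thus moved with the groups in both directions, and their part in the results above was not tested.

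Among the 312 tested genes outside the 7, the gene with the most similar profile over the 6 plates was taken by the root mean square difference of levels centred on the control mean. For PGRP6 it was BIRC6, an inhibitor of apoptosis, at 0.19 on the log2 scale, with a rise of 2.45. For hamp1 it was the interferon gene IFNphi2 at 0.23, which was also highest in control replicate 2 among the control plates and in NOD1 replicate 1 among the NOD1 plates. For C3-1 it was the chemokine receptor CCR3 at 0.13, for C4-1 the nuclear receptor NR2C2 at 0.14 and for C4-2 the chemokine CCL-C11b at 0.15. For PGRP2 it was the gene with the symbol NLRP at 0.34. No gene came close to hamp2, whose nearest was the chemokine CXCL-C1c at 1.01. These likenesses are descriptions over 6 plates that share their reference genes.

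The authors' deposited table gave the same fold for all 326 genes to within a relative difference of 1e-06 when Ct values over 35 were set to 35, with 6.09 for PGRP6, 4.02 for hamp1, 2.42 for PGRP2 and 0.477 for hamp2. The p-values in the authors' deposited table were 1.33e-04 for PGRP6, 0.0149 for hamp1, 0.0104 for C3-1, 0.0298 for C4-2, 0.0379 for C4-1, 0.0512 for PGRP2 and 0.401 for hamp2. After Benjamini-Hochberg adjustment over the 319 genes, PGRP6, hamp1 and C3-1 passed (adjusted p = 0.00531, 0.0373 and 0.0307) and C4-1, C4-2 and PGRP2 did not, where 32% of all genes passed as higher (0.0716, 0.0590 and 0.0902).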

How the data were processed

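The authors measured transcripts by SYBR Green PCR on plates of 336 wells, 1 plate per replicate. The plate files hold raw Ct values, read with a fluorescence threshold of 0.2, per the file headers. A second table deposited by the authors holds a delta Ct per group, the ratio (fold) of NOD1 over control and a p-value from a t-test whose kind is not stated; it was used for symbols, wells and comparison. Amplification efficiency and primers are not stated there. Ct values over 35 or undetermined were set to 35, and levels were taken relative to ACTB, GAPDH and Tuba1. Groups were compared with limma 3.58.1 (lmFit, eBayes, two-sided) in R 4.3.3, and pairs of assays and reference wells with exact permutation tests. The script was tested on simulated data.

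The 7 genes, the symbol lists and the tests were chosen with earlier results of these data known. Named genes are the 7, nod1, the reference genes, the 3 genes per list that differed most in size and the gene nearest to each of the 7; others are stated as chosen after their values were seen. Alternatives covered 10 scalings, a ceiling of 40 cycles, late values as missing, no filter, blocks and leaving out each plate; the 2 scalings to RTC and PPC wells were added after the data were seen. Sequences are not shown here.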

Additional observations from a re-analysis of the deposited data

How the results depend on the processing

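PGRP6 and hamp1 stayed higher and past the threshold under every alternative run, and C3-1 stayed higher in sign. Against 118 higher and 49 lower genes of 319, the global mean gave 76 and 140, quantile scaling 60 and 78, cyclic loess 66 and 72, raw Ct 71 and 134, 18S rRNA added 195 and 18, the global median 79 and 114, GAPDH alone 127 and 26, and the added scalings to RTC and PPC wells 85 and 75 and 68 and 102. Against 6 higher and 0 lower of the 7 genes, 2 were higher with the global mean, global median, quantile (1 lower), cyclic loess, raw Ct, RTC wells and PPC wells, and 3 with ACTB alone (102 higher and 72 lower over the panel) and with the authors' deposited p-values. Reversed signs were C4-1 at -0.51 with quantile and -0.33 with cyclic loess scaling, C4-2 at -0.26 and -0.25, PGRP2 at -0.064 with quantile scaling, and hamp2 at 0.014 without control replicate 2 (-1.79 without control replicate 3). The cause was not tested. Leaving out each plate gave 96 to 113 higher and 31 to 45 lower genes (31 without control replicate 1, 32 without control replicate 3), and 3 to 5 higher and 0 lower of the 7. It gave reference gene shifts of 0.588 to 0.724 cycles, and gaps that changed by -0.32 to 0.10 for C4-1 and C4-2, -3.70 to -2.36 for hamp1 and hamp2 and 0.78 to 1.73 for PGRP2 and PGRP6. Correlations over genes of same-numbered control and NOD1 plates were 0.113, 0.0315 and -0.0218. Those of plates with different numbers were -0.101 to 0.0567. These values rest on deviations from means of 3 plates and cannot decide whether the replicate numbers pair the plates. A fit with the replicate block called 111 genes higher and 40 lower and 5 of the 7 higher, C4-2 having an adjusted p of 0.0611. The random run-day block had a correlation of -0.33 and called 141 and 71. No run day held plates of both groups, so this block could not adjust the difference for run day. With it the SE went from 0.42 to 0.29 for hamp1 and from 0.18 to 0.13 for PGRP6. A ceiling of 40, late values missing and no filter changed no call among the 7, whose wells were all under 35. With 3 plates a group, exact tests could not go below 0.1.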

Other observations

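The control plates scattered more than the NOD1 plates for most of the 7 genes. The SD of the relative level was larger in control for 6 of the 7, the exception being C3-1, where the share over all 319 genes was 37.0%. For C4-2 the SD was 0.35 in control and 0.058 in NOD1, for PGRP6 0.29 and 0.10, and for hamp2 1.91 and 0.49. On raw Ct the SD of hamp1 was 0.57 in control and 0.59 in NOD1, so its order depends on the scaling. The control plates were run on more days than the NOD1 plates, and no test of the spread was run.

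Among the control plates, replicate 2 had the highest relative level for 6 of the 7 genes and the lowest for PGRP2. It was the highest control plate for 161 of the 319 genes, and the median of all genes on that plate lay 0.059 above the control mean on the log2 scale. Its mean reference Ct, 17.75, was the latest of the control plates (17.61 and 17.48), which raises every relative level there. On raw Ct PGRP6 was earliest in control replicate 3 (25.71, against 25.80 in replicate 2). The others of these 6 genes stayed earliest in replicate 2.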
